A study of Mus musculus with 12 samples.

Results

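The enzymes that break down amino acids were followed in mouse livers and liver tumors, with and without dietary tryptophan (Trp). The list holds 48 enzymes of 24062 gene symbols counted, chosen by name from the pathways of aromatic, branched-chain, sulfur, histidine, glycine, lysine and proline breakdown. RNA came from 12 mice in 4 groups of 3. The MYC-ON livers were from males of the FVB strain that carry LAP-tTA and TRE-MYC. In these mice human MYC is expressed in the liver once doxycycline is withdrawn at birth. The control diet was given to mice 101, 102 and 103, and the No-Trp diet to mice 105, 107 and 108. The xenografts were tumors of HCC53N, a single line of mouse liver cancer cells with p53 knocked out and mutant NRAS, grown under the skin of NOD SCID mice, and the labels describe the cancer cells as MYC-ON too. The control diet was given to mice 40, 41 and 43 and the No-Trp diet to mice 35, 36 and 37. The data of livers 101 and 108 and xenografts 41 and 43 bear a mark of resubmission, and those of xenograft 40 are named in another pattern, so that its diet rests on its labels. The mice in both models received these diets for 21 days. The MYC-ON livers on both diets are labelled with an age of 45 days, and the xenografts with none. The paper gives that age for MYC-ON males set beside wild type mice. For MYC-ON mice killed after a diet experiment of the same length it gives a later age. It does not say whether the livers used here came from that experiment, so their age is uncertain. A piece of MYC-ON liver can hold tumor and surrounding liver, and a xenograft holds cells of its host.

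As background, the liver is the main site where surplus amino acids are degraded. The enzymes that open the pathways differ, and include transaminases, dehydratases, lyases and dehydrogenases. Nitrogen is removed along the way, and much of the carbon passes through mitochondria to glucose or acetyl-CoA. Many of these genes are switched on as hepatocytes mature and respond to glucagon, glucocorticoids and protein intake. The branched-chain amino acids are the exception among them, since their transaminase is low in hepatocytes and most of their first step takes place in other tissues.

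Of the reads counted on genes, the 48 enzymes held 0.615% to 1.10% in the control livers, 2.19% to 2.94% in the No-Trp livers, 0.114% to 0.138% in the control xenografts and 0.148% to 0.156% in the No-Trp xenografts. The ranges on the 2 diets did not overlap in the livers or in the xenografts. The libraries had 14660963 to 26085349 reads on genes. Levels are CPM (read counts scaled to the size of the library) with trimmed-mean (TMM) scaling over the 12 libraries. A gene was called when its adjusted p was at most 0.05 and its log2 fold change at least 1 in either direction, by edgeR's quasi-likelihood test with Benjamini-Hochberg adjustment over all genes tested. All adjusted p-values are from that test. Exons of Aldh4a1, Bcat2, Bckdha, Bhmt, Dmgdh, Gls2, Hibadh, Mccc1, Mut, Pcca, Sardh and Sds overlap those of another gene in the annotation, and since the strand setting of the counting is not given in the sources used here, their counts are uncertain. The labels do not say whether mice of a group shared a litter or cage, and the p-values measure the spread between these mice.

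In the livers, Trp starvation was accompanied by higher expression of most of these enzymes. Of the 48, 29 were called higher and 0 were called lower, while 9.28% of the 14122 genes tested were called higher and 7.27% lower. The median log2 fold change was 1.27 over the enzymes and -0.003 over all genes tested, and the enzymes ranged from -0.35 for Amt to 4.43 for Tat. With the adjusted p alone 33 passed, all of them higher, beside 25.3% of all genes in either direction. No enzyme was lower at an unadjusted p under 0.05, where 2913 of the 14122 genes tested were. DESeq2 called 30 enzymes higher and 0 lower. In 37 enzymes the 3 No-Trp livers all lay above the 3 control livers, and in 2, Mccc2 and Amt, they all lay below. Among all genes, 23.6% were separated upward and 25.0% downward.

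The control livers were not alike. Mouse 102 had the highest level of the 3 controls in 34 of the 48 enzymes, and mouse 107 was the highest No-Trp liver in 39. The summed level of 8 hepatocyte markers (among them Alb, Ttr and Apoa1) was 51642 CPM in mouse 102 and 14152 and 17292 CPM in the other control livers, and it was 56539 to 150116 CPM in the No-Trp livers. Of these 8 markers, 3 were called higher and 8 had a positive log2 fold change. Their median log2 fold change was 1.40, beside 1.27 over the 48 enzymes. Dividing-cell markers summed to 898 to 1045 CPM in the control livers and 63.7 to 277 CPM in the No-Trp livers, with 4 of 4 called lower. Of 6 erythroid markers, 3 globin genes were listed at 0 in the 12 libraries and the other 3 were called lower, with sums of 38.2 to 460 CPM on the control diet and 6.81 to 16.0 CPM on the No-Trp diet. The part of these cell markers in the enzyme differences was not tested, and in bulk tissue fewer cells of a type and less RNA per cell cannot be told apart. The paper reports fewer and smaller tumors, and less MYC, in MYC-ON livers on the No-Trp diet. The share of tumor in each piece of liver is not known. A change of that share and a change of enzyme expression within cells therefore cannot be told apart. Without mouse 102, 35 enzymes were called higher. The calls rested more on the other controls: 4 enzymes were called without mouse 101 and 0 without mouse 103, and among No-Trp livers 7 without mouse 105 and 17 without mouse 107. The direction of the 29 called enzymes held in each of these fits. It also held for 29 of 29 both among the livers with the resubmission mark (mice 101 and 108) and among those without it. The 29 were chosen by their calls in these same livers, and the marked set holds 1 mouse per diet. Agreement in direction in these fits and sets is therefore no independent support.

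**Figure D1:**
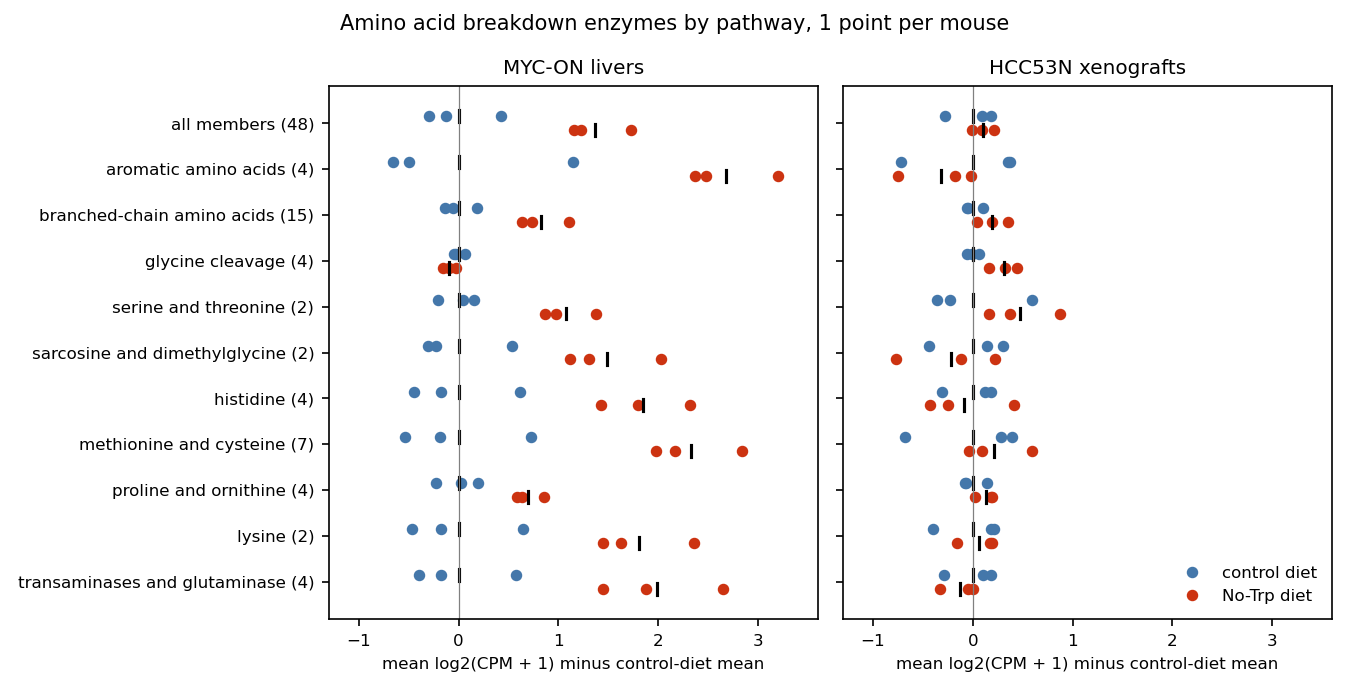
Mean log2(CPM + 1) of each pathway's enzymes in each mouse, minus the mean of the 3 control-diet mice of that model (x axis, log2 units), with the number of enzymes in parentheses. Points are mice and black ticks group means. For all 48 enzymes the No-Trp livers sit at 1.16, 1.23 and 1.73 and the control livers between -0.30 and 0.42, whereas the xenografts on both diets lie between -0.28 and 0.21.

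The aromatic pathway, which degrades tyrosine, had 4 of 4 enzymes called higher in the livers. Tat (tyrosine aminotransferase, chr8:109990437-109999803 on GRCm38) starts the pathway and is a classic target of glucocorticoids and glucagon. Its level was 37.1, 496 and 56.3 CPM in control mice 101, 102 and 103 and 3481, 5097 and 3909 CPM in No-Trp mice 105, 107 and 108. The groups did not overlap, although mouse 102 was far above the other controls. The log2 fold change was 4.43 ± 1.06 (SE, adjusted p = 0.0298), the largest of the 48, and 6.48 without mouse 102. Tat lost its call when any 1 of the other 5 livers was left out, and its lowest log2 fold change was then 3.94. Hgd, the homogentisate dioxygenase further down, had the smallest change of the 4, from 128, 234 and 106 CPM to 403, 576 and 397 CPM (log2 fold change 1.58 ± 0.33, adjusted p = 0.0236). Hpd and Fah, the second and the last enzymes of tyrosine breakdown, rose by log2 fold changes of 1.89 and 1.86. Gstz1, the isomerase before Fah, was called higher at 1.70.

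The windows of 250 bases before the annotated start of transcription are shown for Tat, the largest rise, for Hal, Ftcd and Got1, which also rose and hold motif matches, and for Gldc, whose level did not differ. They were picked as examples and do not compare risen with unchanged enzymes, since some enzymes that were not called hold matches too. They were read from RefSeq on GRCm38.p6, where 39 of the 48 enzymes had an entry, and those not found were Dbt, Mut, Sds, Sdsl, Mat1a, Cth, Cdo1, Gpt and Gls2. Capitals mark matches, on either strand, to TATAAA (the TATA box), TTGCNNAA (a pair of C/EBP half-sites), TGATGNAA (a composite of C/EBP and ATF) and ACANNNTGT (a glucocorticoid receptor half-site pair). In Hal the last of these overlaps the TATA match by a base. The windows are Tat (chr8:109990186-109990435, + strand), Hal (chr10:93488518-93488767, + strand), Ftcd (chr10:76575398-76575647, + strand), Got1 (chr19:43524606-43524855, - strand) and Gldc (chr19:30175442-30175691, - strand).
Tat: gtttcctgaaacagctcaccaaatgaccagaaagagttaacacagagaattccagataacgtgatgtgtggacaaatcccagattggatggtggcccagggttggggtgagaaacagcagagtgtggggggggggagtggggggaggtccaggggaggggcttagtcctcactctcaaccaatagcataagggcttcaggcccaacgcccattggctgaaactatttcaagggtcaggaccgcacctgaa
Hal: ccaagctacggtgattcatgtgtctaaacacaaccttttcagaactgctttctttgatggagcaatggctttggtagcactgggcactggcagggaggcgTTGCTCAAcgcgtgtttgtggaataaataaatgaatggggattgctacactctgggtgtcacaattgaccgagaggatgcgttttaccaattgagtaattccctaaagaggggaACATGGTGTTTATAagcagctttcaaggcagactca
Ftcd: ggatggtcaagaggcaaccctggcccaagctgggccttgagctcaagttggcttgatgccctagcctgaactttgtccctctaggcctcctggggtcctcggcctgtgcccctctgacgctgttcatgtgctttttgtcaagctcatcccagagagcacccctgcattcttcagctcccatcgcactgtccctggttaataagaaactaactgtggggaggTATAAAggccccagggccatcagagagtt
Got1: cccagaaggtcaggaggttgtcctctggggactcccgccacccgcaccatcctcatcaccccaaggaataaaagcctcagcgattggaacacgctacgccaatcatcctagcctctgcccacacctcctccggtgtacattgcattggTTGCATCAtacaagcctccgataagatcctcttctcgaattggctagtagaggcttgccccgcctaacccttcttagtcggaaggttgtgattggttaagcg
Gldc: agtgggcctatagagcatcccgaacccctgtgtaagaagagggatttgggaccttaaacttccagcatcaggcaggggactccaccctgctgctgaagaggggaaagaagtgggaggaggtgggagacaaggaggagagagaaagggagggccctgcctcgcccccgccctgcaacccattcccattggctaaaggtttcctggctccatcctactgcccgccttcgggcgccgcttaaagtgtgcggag
Tat and Gldc held none of these letters in the window. The TATA match was in 3 of 39 enzyme windows (7.69%) and in 12.4% of 32851 windows of the genome, and the 3 were Hgd, Hal and Ftcd, at 134, 23 and 24 bases before the start at their near end. The C/EBP pair was in 7 windows (17.9%, genome 9.56%), 4 of them among the 22 windows of enzymes called higher. The rest were Acadsb, Dld and Prodh2, which were not called. Ivd, which was not called either, held the glucocorticoid letters. The glucocorticoid letters were in 3 (7.69%, genome 5.84%), the C/EBP and ATF letters in 1 (2.56%, genome 3.45%) and the E-box CACGTG, which MYC can bind, in 2 (5.13%, genome 6.02%), Mccc2 and Cbs. The HNF4A letters CAAAGTCCA were in 0 (genome 0.384%). These are matches of letters and not sites of binding.

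Branched-chain amino acids are degraded by a long chain of mitochondrial enzymes, and 7 of the 15 measured here were called higher in the livers. Bckdha, the E1 alpha subunit of the branched-chain ketoacid dehydrogenase, had the largest change. It went from 163, 167 and 137 CPM in mice 101, 102 and 103 to 361, 593 and 387 CPM in mice 105, 107 and 108 (log2 fold change 1.54 ± 0.24, adjusted p = 0.0168). The controls were close together and all below the No-Trp livers. Bckdhb, the E1 beta subunit, rose by 1.17, whereas Dbt, the E2 core of the same complex, had a difference of 0.68 that did not pass (adjusted p = 0.0613). Within the distal steps, the valine enzymes Hibch (1.04) and Hibadh (1.33) and the propionyl-CoA enzymes Pccb (1.36) and Mut (1.37) were called, as was Mccc1 (1.04) of leucine breakdown. Bcat2, the transaminase of the first step, and Pcca passed the adjusted p with log2 fold changes of 0.97 and 0.98. Auh, a hydratase of leucine breakdown, had the smallest difference, with 53.5, 48.3 and 48.2 CPM against 49.5, 52.1 and 52.8 CPM (0.06 ± 0.14, adjusted p = 0.773). Mccc1 and Mccc2 encode the 2 subunits of 1 carboxylase, and Mccc2 was at 122, 97.8 and 109 CPM against 90.7, 88.3 and 95.7 CPM (-0.24 ± 0.14, adjusted p = 0.243).

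The complex that Bckdha, Bckdhb and Dbt form is switched off by the kinase Bckdk and on by the phosphatase Ppm1k. Ppm1k had 19.5, 36.5 and 21.5 CPM in the control livers and 63.7, 137 and 110 CPM in the No-Trp livers, and was called higher (log2 fold change 2.02 ± 0.35, adjusted p = 0.0188). Bckdk had 98.9, 68.8 and 84.9 CPM against 55.0, 35.4 and 60.2 CPM. The groups of Bckdk did not overlap, but its difference of -0.73 ± 0.24 did not pass (adjusted p = 0.0585).

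The glycine cleavage system showed no difference that passed the test in the livers, with 0 of 4 components called and a median log2 fold change of -0.02. At an unadjusted p under 0.05 the count was also 0. Gldc, the glycine decarboxylase (chr19:30098447-30175429), was at 333, 313 and 452 CPM on the control diet and 376, 379 and 330 CPM on the No-Trp diet, with overlapping groups (-0.00 ± 0.21, adjusted p = 0.994). Amt, the aminomethyltransferase, was at 53.6, 56.5 and 58.4 CPM against 51.5, 42.5 and 36.8 CPM. Its No-Trp livers were all lower, and the difference of -0.35 ± 0.17 did not pass (adjusted p = 0.157). The carrier Gcsh and the shared dehydrogenase Dld differed by -0.03 and 0.05. Sardh and Dmgdh, which make glycine from dimethylglycine and sarcosine in mitochondria, were both called higher. Dmgdh went from 117, 247 and 120 CPM to 427, 689 and 434 CPM (1.70 ± 0.36, adjusted p = 0.0239), and Sardh from 351, 542 and 385 CPM to 919, 1553 and 686 CPM (1.32 ± 0.36, adjusted p = 0.0365).

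Serine and threonine dehydratase activity is encoded by a pair of related genes. Sds (chr5:120476526-120483932), an enzyme of the starved and glucagon-stimulated liver, was at 135, 145 and 95.7 CPM in the control livers and 443, 498 and 529 CPM in the No-Trp livers (log2 fold change 1.99 ± 0.22, adjusted p = 0.011). Both groups were tight, mouse 102 included. Sdsl was at 47.4, 37.8 and 40.4 CPM against 38.6, 40.2 and 66.3 CPM, with overlapping groups (0.22 ± 0.24, adjusted p = 0.517). Per kilobase of exon, the log2 ratio of Sds to Sdsl was 1.39 ± 0.35 (SD, n = 3) in the control livers and 3.20 ± 0.34 in the No-Trp livers, and these ranges did not overlap.

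Histidine breakdown had 3 of 4 enzymes called higher. Hal, the lyase that starts it (chr10:93488768-93519304), was at 26.8, 56.7 and 25.0 CPM in mice 101, 102 and 103 and 209, 285 and 193 CPM in mice 105, 107 and 108 (log2 fold change 2.68 ± 0.36, adjusted p = 0.0138). Amdhd1 and Ftcd, the third and the last enzyme, rose by 2.03 and 1.77. Uroc1, the urocanate hydratase that follows Hal, had 111, 209 and 88.8 CPM against 226, 416 and 149 CPM. Mouse 108 lay below control mouse 102, and the difference of 0.98 ± 0.45 did not pass (adjusted p = 0.147).

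In methionine and cysteine metabolism 6 of 7 enzymes were called higher, with a median log2 fold change of 2.56. Mat1a, the liver form of the enzyme that makes S-adenosylmethionine (chr14:41105035-41124412), was at 525, 1707 and 479 CPM in the control livers and 5530, 8915 and 4988 CPM in the No-Trp livers. Its log2 fold change was 2.86 ± 0.60 (adjusted p = 0.0232). Gnmt, which uses S-adenosylmethionine to methylate glycine, rose by 2.56, Ahcy, which hydrolyses the product, by 1.99, and Bhmt, which remakes methionine from betaine, by 2.91. Control mouse 102 had 900 CPM of Bhmt beside 224 and 137 CPM in mice 101 and 103. Without it the log2 fold changes were 3.69 for Mat1a, 4.10 for Bhmt and 3.99 for Cdo1. Cdo1, the dioxygenase that commits cysteine to taurine and sulfate, had the largest change of the 7. It went from 136, 353 and 70.4 CPM to 1586, 1853 and 1447 CPM (3.15 ± 0.58, adjusted p = 0.0196). Between homocysteine and cysteine lie Cbs and Cth. Cth was called at 1.21, and Cbs, with 207, 189 and 154 CPM against 354, 461 and 238 CPM, passed the adjusted p (0.0416) at a log2 fold change of 0.95 ± 0.27. Bhmt2, a relative of Bhmt outside the list, was called higher at 2.26.

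Proline and ornithine breakdown had 1 of 4 enzymes called. Prodh, the proline dehydrogenase, was at 97.2, 111 and 80.4 CPM against 246, 296 and 226 CPM (log2 fold change 1.43 ± 0.19, adjusted p = 0.0136). Its relative Prodh2, which oxidises hydroxyproline (chr7:30493622-30513402), was at 372, 321 and 267 CPM against 275, 304 and 369 CPM, with groups that overlapped fully (-0.00 ± 0.20, adjusted p = 0.997). Oat, the ornithine aminotransferase, passed the adjusted p at 0.90, and Aldh4a1, the dehydrogenase after Prodh, had 0.53 (adjusted p = 0.167). Per kilobase of exon the log2 ratio of Prodh to Prodh2 was -3.40 ± 0.20 (SD, n = 3) in control livers and -1.97 ± 0.35 in No-Trp livers, without overlap. Both lysine enzymes were called higher. Aass, which starts lysine breakdown, went from 37.0, 122 and 38.6 CPM to 298, 475 and 213 CPM (2.35 ± 0.55, adjusted p = 0.0286). Gcdh, which acts near its end, went from 236, 229 and 152 CPM to 365, 636 and 400 CPM (a rise of 2.30-fold, adjusted p = 0.0291).

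Among transaminases and glutaminase, 3 of 4 were called higher. Gpt, the cytosolic alanine aminotransferase (chr15:76695716-76699686), went from 67.2, 139 and 64.3 CPM to 422, 741 and 442 CPM (log2 fold change 2.59 ± 0.39, adjusted p = 0.0163). Got1, the cytosolic aspartate aminotransferase, went from 114, 142 and 144 CPM to 502, 662 and 310 CPM (a rise of 3.73-fold, adjusted p = 0.0168). Gls2, the liver glutaminase, had the smallest change, from 130, 135 and 94.5 CPM to 197, 335 and 189 CPM (1.03 ± 0.27, adjusted p = 0.036). Agxt, which detoxifies glyoxylate, was at 12.8, 42.0 and 7.55 CPM against 99.1, 218 and 48.4 CPM. Its groups did not overlap, but the spread was wide and 2.58 ± 0.78 missed the threshold (adjusted p = 0.0517).

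**Figure D2:**
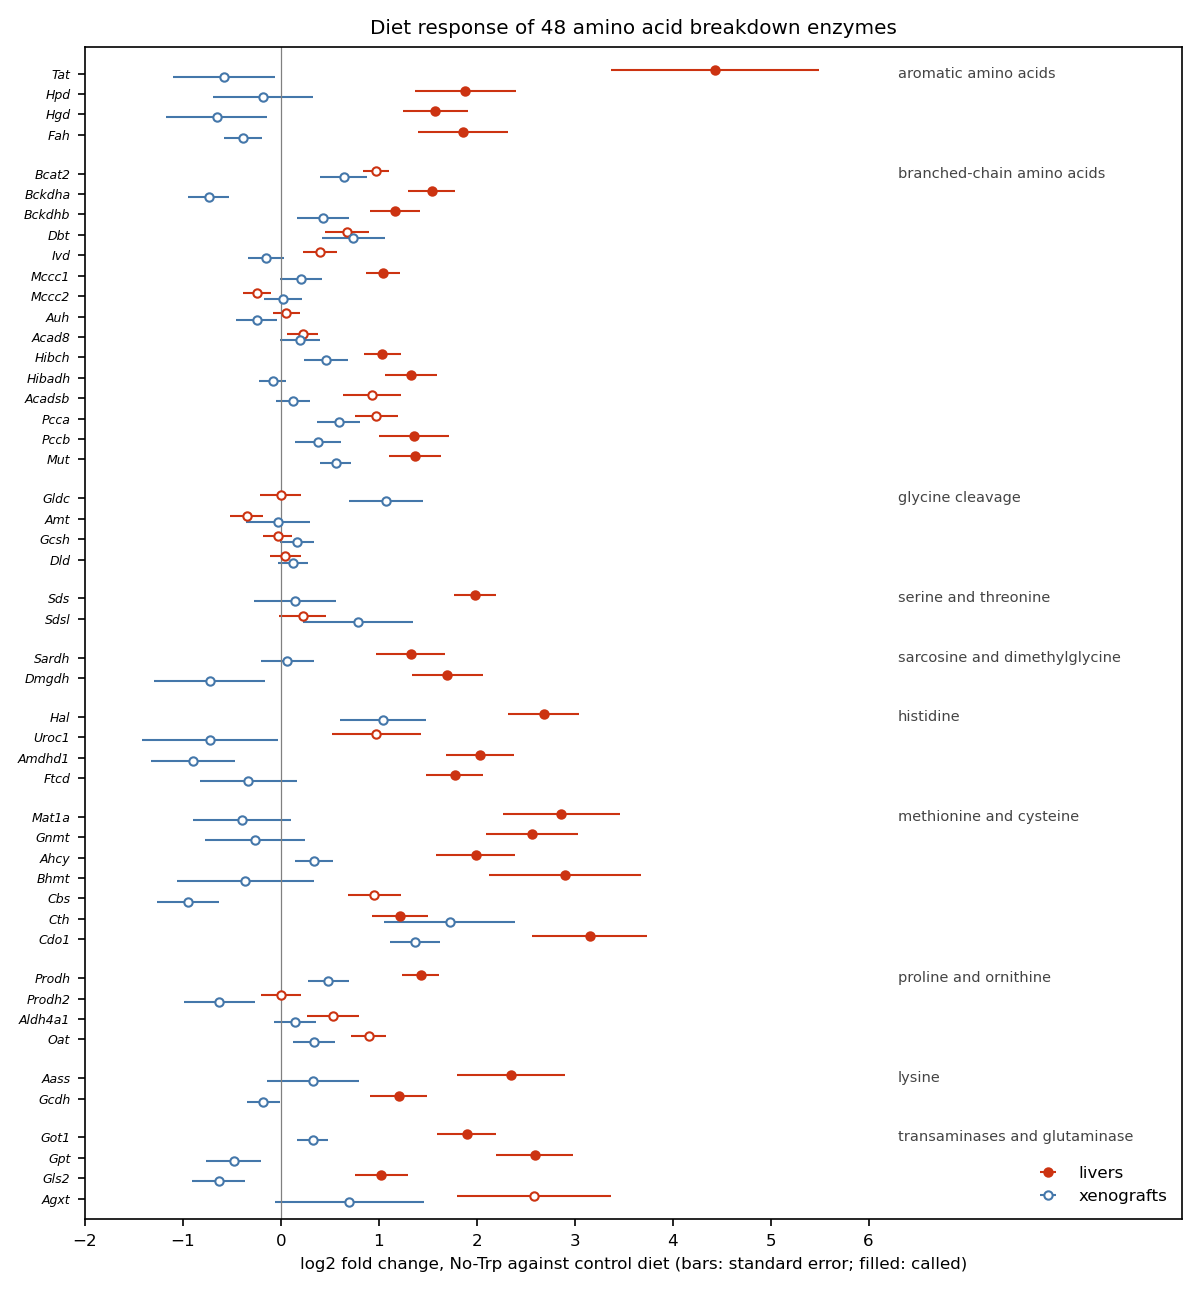
Log2 fold change of each of the 48 enzymes, No-Trp against control diet, in the livers (red) and the xenografts (blue), grouped by pathway. Bars are standard errors and filled points are called. The liver points run from -0.35 to 4.43 with 29 filled, while the xenograft points run from -0.95 to 1.72 with 0 filled.

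Several steps have a liver form and a form found in other tissues or compartments, which allows the 2 to be compared within a library. Mat2a, the form of growing and extrahepatic cells, was at 392, 285 and 448 CPM in the control livers and 289, 169 and 216 CPM in the No-Trp livers (log2 fold change -0.73 ± 0.27, adjusted p = 0.0839). The log2 ratio of Mat1a to Mat2a per kilobase was 1.41 ± 1.35 (SD, n = 3) in control livers and 5.21 ± 0.78 in No-Trp livers. The ranges of this ratio were separate between the diets. Gpt2, the mitochondrial partner of Gpt, also rose, from 290, 439 and 283 CPM to 897, 752 and 1154 CPM (1.49 ± 0.27, adjusted p = 0.0196). Got2, the mitochondrial partner of Got1, was at 1103, 1157 and 1175 CPM against 1386, 1406 and 1327 CPM (0.28 ± 0.21, adjusted p = 0.352). The log2 ratio of Got1 to Got2 was -2.18 ± 0.14 in control livers and -0.62 ± 0.51 in No-Trp livers, again without overlap. Bcat1, the cytosolic partner of Bcat2, was at 0.369 to 2.56 CPM in the 6 livers, and its difference of -0.26 ± 0.76 did not pass (adjusted p = 0.822). With 3 mice against 3 an exact permutation test cannot reach 0.05, so the ratios carry no p-value.

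**Figure D3:**
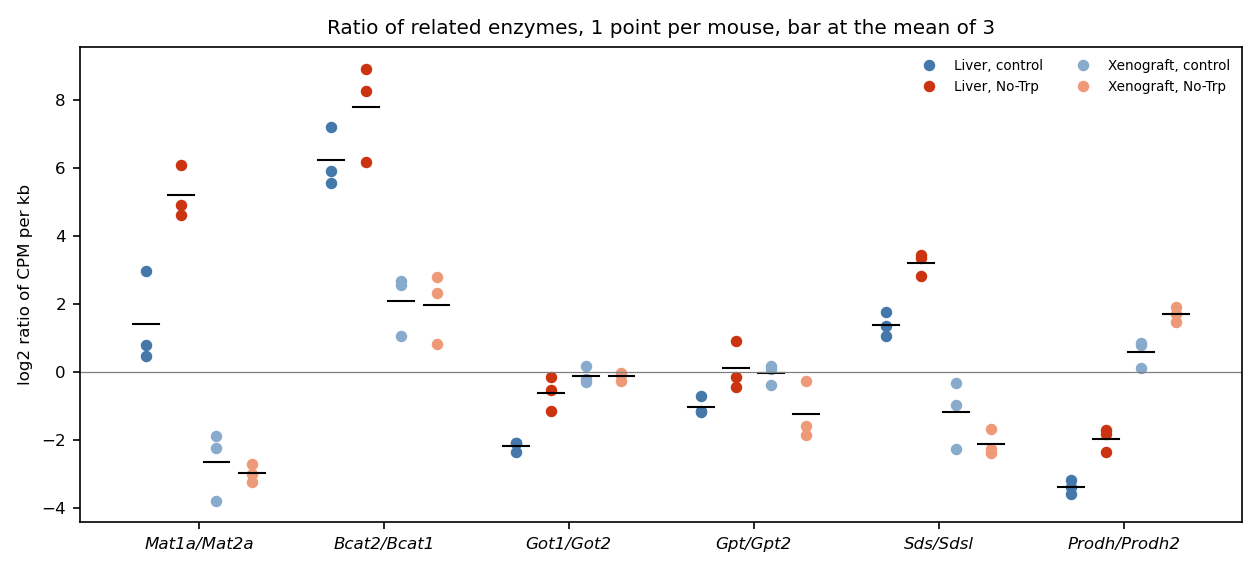
Log2 ratio of CPM per kilobase of exon between 2 related enzymes (y axis) for 6 pairs in the 4 groups. Points are mice and bars means of 3. The Mat1a to Mat2a ratio has a mean of 1.41 in control livers and 5.21 in No-Trp livers, and is -2.65 and -2.99 in the xenografts.

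Compared per kilobase of exon, the most abundant of the 48 in the control livers was Mat1a, at a mean of 261 CPM per kb, followed by Gnmt at 233, Hpd at 191 and Prodh2 at 130. In the No-Trp livers the order was Mat1a at 1868, Tat at 1731, Gnmt at 1353 and Cdo1 at 991 CPM per kb. Tat came from 81.7 CPM per kb on the control diet. The spread between mice is wide for these genes, with 4988 to 8915 CPM of Mat1a and 3481 to 5097 CPM of Tat in No-Trp livers.

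The remaining enzymes of the same pathways moved less uniformly. Of 48 further steps, 47 were tested in the livers, 11 were called higher and 1 lower, with a median log2 fold change of 0.64. Sqrdl, the sulfide oxidising enzyme, had the largest difference, from 11.0, 67.3 and 12.5 CPM to 134, 246 and 120 CPM, and missed the threshold (2.49 ± 0.75, adjusted p = 0.0516). Mtrr, which reactivates methionine synthase, had the smallest (-0.02 ± 0.17, adjusted p = 0.946). The one called lower was Enoph1, of the methionine salvage pathway, from 46.7, 32.9 and 43.7 CPM to 19.4, 13.5 and 23.7 CPM (-1.11 ± 0.25, adjusted p = 0.026). It was named, like Gstz1, Bhmt2 and Glud1, after its values were seen. Glud1, the glutamate dehydrogenase that receives nitrogen from the transaminases, rose from 635, 940 and 742 CPM to 2124, 2241 and 2050 CPM (1.49 ± 0.25, adjusted p = 0.0182).

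Regulators known to act on these genes were also read, and 7 of 14 were called higher in the livers and 0 lower. The largest change was in Ppara, the nuclear receptor of fasting, from 57.7, 137 and 75.6 CPM to 409, 590 and 272 CPM (log2 fold change 2.25 ± 0.41, adjusted p = 0.0196). The smallest was in Onecut1 (0.19 ± 0.51, adjusted p = 0.804). The other 6 called were Nr1h4, Cebpb, Klf15, Ppargc1a, Gcgr and Cebpa, between 1.04 and 2.02, and are named after their values were seen. At an unadjusted p under 0.05, 1 of the 14 was lower. Amino acid breakdown is mostly a task of hepatocytes near the portal vein. Of 6 portal-side markers 5 were tested and 3 were called higher, with sums of 1902 to 4783 CPM on the control diet and 11207 to 19446 CPM on the No-Trp diet. The largest difference was in Pck1 (3.33), which was not called, and the smallest in Cyp2f2 (0.35). Of 8 central-side markers 0 were called, 2 had an unadjusted p under 0.05, and the log2 fold changes ran from 0.40 for Cyp1a2 to 2.04 for Cyp2e1. The summed central-side level was 320 to 3247 CPM against 2932 to 7179 CPM, and the ranges overlapped.

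In the xenografts the same diet gave no call among the 48 enzymes with edgeR. The count was 0 higher and 0 lower, beside 0.245% and 0.116% of the 14704 genes tested. It was also 0 in each direction with the adjusted p alone, beside 0.374% of all genes in either direction. At an unadjusted p under 0.05, 9 enzymes were higher and 3 lower, where all genes had 7.82% and 9.07%. The tumors on the 2 diets were separated upward in 7 enzymes and downward in 4, and among all genes in 10.8% and 11.8%. The median log2 fold change was 0.13. DESeq2 called 1 enzyme higher and 0 lower.

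That enzyme was Cdo1, which had the smallest p of the 48 in the xenografts. Its level was 14.4, 8.62 and 14.0 CPM in control mice 40, 41 and 43 and 26.4, 30.5 and 38.9 CPM in No-Trp mice 35, 36 and 37. The groups did not overlap, and the log2 fold change was 1.37 ± 0.25 (adjusted p = 0.0578). Cdo1 is also expressed in fat. Adipocyte markers summed to 11.4 to 66.6 CPM in the control tumors and 351 to 736 CPM in the No-Trp tumors, with 2 of 4 called higher, and skeletal muscle markers to 1.72 to 16.3 CPM and 26.5 to 54.6 CPM, with 0 of 4 called and 4 of 4 at an unadjusted p under 0.05. The part of these host tissues in the levels of Cdo1 and the other enzymes was not tested. Mut, the mutase of propionate metabolism, had 20.8, 18.3 and 20.5 CPM against 31.7, 30.4 and 26.5 CPM (0.56 ± 0.16, adjusted p = 0.157). Bckdha had 72.3, 50.5 and 74.3 CPM against 42.4, 30.8 and 46.0 CPM, and here the No-Trp tumors were the lower ones (-0.74 ± 0.21, adjusted p = 0.158). Cbs had 42.7, 30.2 and 73.6 CPM against 23.9, 30.9 and 21.7 CPM (-0.95 ± 0.32, adjusted p = 0.209). Mouse 36 lay above control mouse 41, so the groups of Cbs overlapped.

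The highest estimate in the xenografts was that of Cth, the enzyme that releases cysteine from cystathionine (chr3:157894248-157925077). It was at 14.6, 11.6 and 10.9 CPM on the control diet and 8.78, 74.4 and 40.2 CPM on the No-Trp diet. Mouse 35 lay below the controls and the other 2 far above them, and 1.72 ± 0.67 did not pass (adjusted p = 0.268). Without mouse 35, Cth was called higher. Gldc was at 9.27, 15.1 and 17.2 CPM against 30.2, 16.1 and 41.7 CPM (1.07 ± 0.38, adjusted p = 0.22). Tat, so much higher in the No-Trp livers, was at 20.4, 5.94 and 26.2 CPM against 15.3, 12.6 and 7.42 CPM in the tumors (-0.58 ± 0.52, adjusted p = 0.621).

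**Figure D4:**
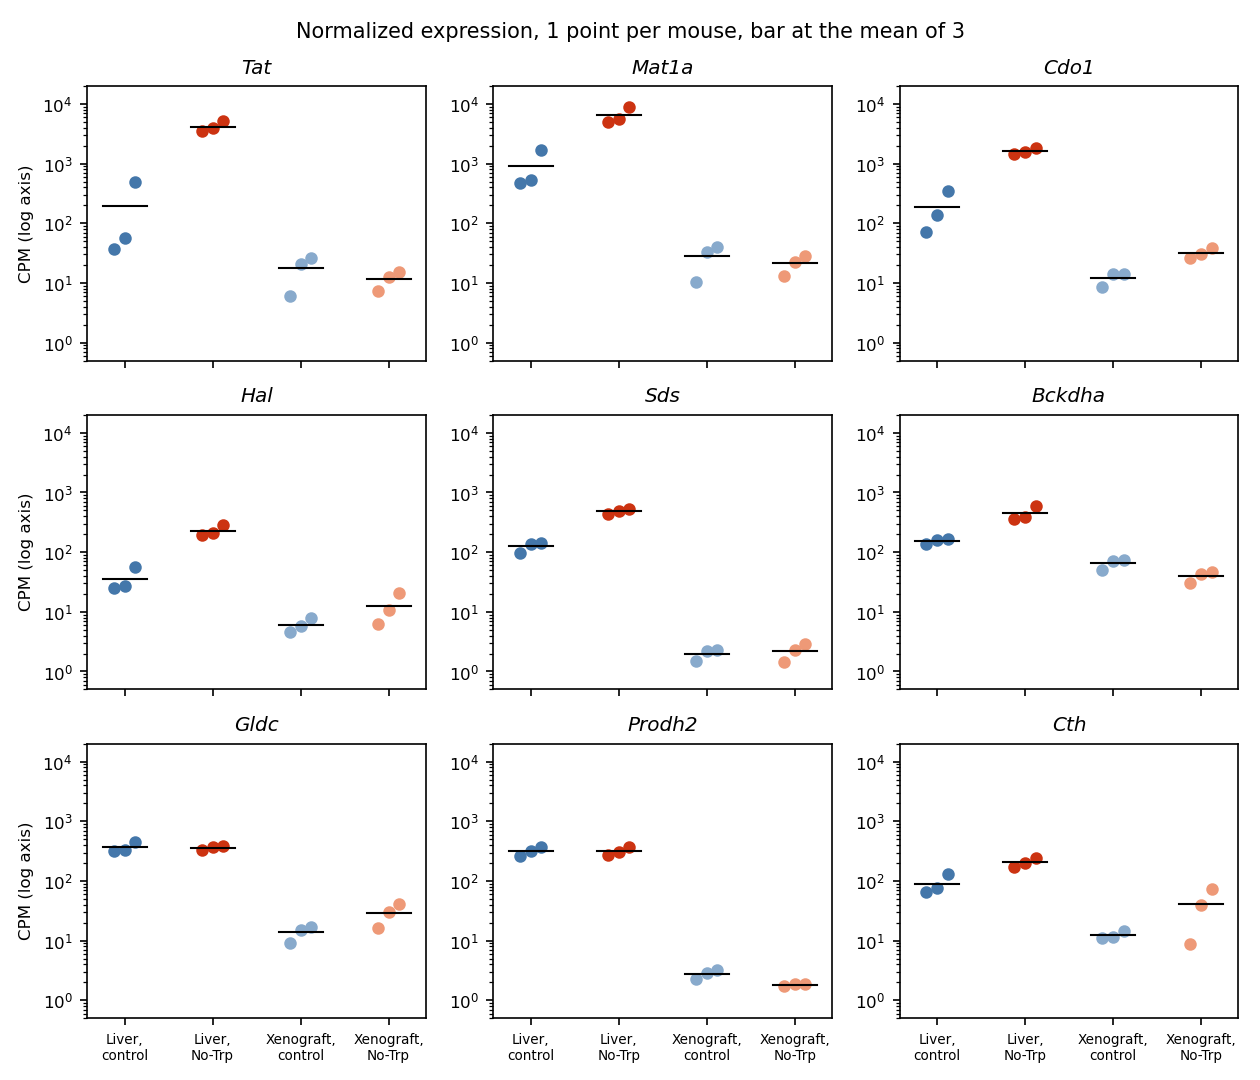
CPM (log axis) of 9 enzymes in the 4 groups. Points are mice, in ascending order within a group, and bars are means of 3. Tat runs from 37.1 to 496 CPM in control livers and from 3481 to 5097 CPM in No-Trp livers, Gldc and Prodh2 overlap between the liver groups, and Cth spreads from 8.78 to 74.4 CPM in No-Trp xenografts.

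Whether the diet response differed between livers and xenografts was tested by the interaction term of a fit over the 12 libraries. A negative value means that the response in the xenografts was below that in the livers. Of the 48 enzymes, 17 were called lower and 0 higher, beside 6.01% and 6.70% of 15472 genes, and the median was -1.29. The 8 hepatocyte markers were all negative, with 1 called lower and a median of -1.59. Of the 5 portal-side markers tested, 4 were negative and 3 were called lower, with a median of -1.82. The difference is thus not particular to these enzymes, and the part of hepatocyte content in it was not tested. At an unadjusted p under 0.05, 28 enzymes were lower and 1 higher, beside 2382 and 2598 of the 15472 genes. DESeq2 called 24 enzymes lower and 0 higher. The smallest p was that of Bckdha, with an interaction of -2.25 ± 0.33 (adjusted p = 0.00484) from a diet response of 1.54 in the livers and -0.74 in the xenografts. Amdhd1 had -2.88 ± 0.47 (adjusted p = 0.00672). Its levels were 29.3, 48.8 and 25.5 CPM in control livers, 143, 186 and 89.2 CPM in No-Trp livers, and 0.806 to 2.44 CPM in the 6 tumors. Gpt followed with -3.04 ± 0.50 (adjusted p = 0.00711) and Sds with -1.80 ± 0.35 (adjusted p = 0.0109). In the tumors, Gpt was at 27.4, 14.1 and 17.4 CPM against 16.9, 14.5 and 11.2 CPM and Sds at 2.26, 1.52 and 2.19 CPM against 2.87, 2.34 and 1.44 CPM. By pathway, the called enzymes were 3 of 4 aromatic, 2 of 15 branched-chain, 0 of 4 glycine cleavage, 1 of 2 serine and threonine, 1 of 2 sarcosine and dimethylglycine, 2 of 4 histidine, 4 of 7 methionine and cysteine, 0 of 4 proline and ornithine, 1 of 2 lysine and 3 of 4 transaminases and glutaminase.

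The interaction count depended on single libraries. It was 11 without control liver 101, 7 without control liver 103, 10 without No-Trp liver 107, 11 without each of control xenografts 40 and 43, 11 without No-Trp xenograft 36 and 9 without No-Trp xenograft 37, and 25 without control liver 102. Gldc was called higher without No-Trp xenograft 36 and Sdsl without control xenograft 40. Of 47 further steps of the pathways, 9 were called lower in the interaction and 3 higher, beside 6.01% and 6.70% of all genes. Ppm1k (-1.83, adjusted p = 0.038) was among the lower ones. The higher ones were Shmt2 (1.53), Enoph1 (1.39) and Mtr (1.01), named after their values were seen. Their share was near that of all genes. Of the 14 regulators, 4 were called lower and 0 higher. Another 1 was higher and passed the adjusted p, with a log2 difference below the threshold. The smallest p of the 14 was that of Cebpb. Cebpb, a factor of the C/EBP family, went from 30.8, 40.2 and 33.1 CPM to 107, 179 and 97.7 CPM in the livers and from 69.9, 76.6 and 71.1 CPM to 29.0, 36.2 and 27.2 CPM in the xenografts. It was called higher in the livers and lower in the xenografts, with an interaction of -3.12 ± 0.32 (adjusted p = 0.00165), and was named after its values were seen.

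Between the models, the xenografts held less of these transcripts than the livers on either diet. On the control diet 44 of 48 enzymes were called lower in xenografts and 0 higher, beside 20.2% and 23.3% of all genes, and on the No-Trp diet 47 and 0, beside 19.1% and 24.5%. No enzyme was higher at an unadjusted p under 0.05 in either comparison, and DESeq2 called the same numbers. In each of the 48 the 3 xenografts lay below the 3 livers on each diet. Among the 15472 genes tested, 4914 were separated downward and 5157 upward on the control diet. On the No-Trp diet these counts were 4560 and 5790. The largest difference on the control diet was in Prodh2, with 2.84, 2.31 and 3.23 CPM in xenografts 40, 41 and 43 against 372, 321 and 267 CPM in the livers (log2 difference -6.84 ± 0.22, adjusted p = 4.7e-09). Agxt was next at -6.25 ± 0.94 (adjusted p = 0.000157), but rested on at most 9 reads per tumor library. The smallest differences were those of Got1, with 91.2, 79.6 and 95.7 CPM in the tumors (-0.59 ± 0.23, adjusted p = 0.0467), and of Ivd, the isovaleryl-CoA dehydrogenase, with 88.5, 66.9 and 70.0 CPM against 121, 126 and 116 CPM (-0.69 ± 0.18, adjusted p = 0.00576). Gcsh was the enzyme not called on the No-Trp diet (-0.48 ± 0.16, adjusted p = 0.0202). The 8 hepatocyte markers summed to 1119 to 3205 CPM in control xenografts and 1016 to 2776 CPM in No-Trp xenografts, below the livers, and 8 of 8 were called lower on each diet. The paper describes female NOD SCID hosts and repeats with males, so the sex of the hosts used here is uncertain. Strain, site, driver genes and possibly sex differ between the models together and cannot be told apart.

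The balance within pairs also differed between the models. The log2 ratio of Mat1a to Mat2a was -2.65 ± 1.01 in control xenografts and -2.99 ± 0.26 in No-Trp xenografts (SD, n = 3), so Mat2a exceeded Mat1a in the tumors while Mat1a exceeded Mat2a in the livers. Sds to Sdsl was -1.19 ± 0.98 and -2.12 ± 0.38 in the tumors. Prodh to Prodh2 was 0.58 ± 0.42 and 1.69 ± 0.21, and its tumor ranges did not overlap between the diets. Bcat2 stayed above Bcat1, by 2.10 ± 0.91 and 1.98 ± 1.04 on the log2 scale, and Got1 was close to Got2, at -0.11 ± 0.26 and -0.13 ± 0.12.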

How the data were processed

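One library of polyadenylated RNA per mouse was analysed. Per the labels and methods, the deposited table of each mouse holds raw counts of reads on genes. The authors made them with Trim Galore, STAR 2.7.2b on mm10, SAMtools 1.9 and HTSeq, and did not normalize them. The strand and overlap settings are not given in the sources used here. Reads not assigned to a gene (24.7% to 39.4%) were left out. Rn45s, a ribosomal precursor, took 12.1% of gene reads in mouse 101.

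The quasi-likelihood test of edgeR 4.0.16 (R 4.3.3) was run two-sided after filterByExpr and TMM scaling, with robust glmQLFit, within each model for diet and over 12 libraries for the interaction and the models. A standard error is the log2 fold change divided by the square root of F. Replicates were compared, and no 2 agreed within sampling noise. Lengths and positions are from GENCODE M21. Alternatives were DESeq2 1.42.0, RLE factors, library totals, other filters, no fold threshold, resubmission as a covariate, no Rn45s, other sets of libraries in the fit and leaving out each library. The main edgeR fit and the DESeq2 fit of each comparison were tested on simulated counts, with the same spread for every gene. The other alternatives were not simulated. In the simulation the interaction recovered fewer of the changed genes than a first limit asked for. The limit was then replaced by a limit on the bias and sign of the estimates, which each simulated fit met. The members and lists were chosen with earlier results of these data known. Named genes are the largest and smallest changes per pathway, the 4 smallest p of the xenograft and interaction tests, the 2 largest and smallest model differences, 6 pairs of related enzymes, and the extremes of the other lists with Bckdk and Ppm1k. Some genes that this rule covers are not reported here.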

Additional observations from a re-analysis of the deposited data

Results flagged for a closer look

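The diet response of 17 enzymes differed between the livers and the xenografts by the interaction test of edgeR, with the response in the xenografts below that in the livers for each. The values are log2 differences of the 2 responses. Some of these enzymes were barely expressed in the tumors: Hgd, Dmgdh, Amdhd1, Ftcd and Sds reached at most 5.06 CPM there. For them the value mostly reflects the response in the livers. The 8 hepatocyte markers were also all negative by this test, with a median of -1.59. Among the aromatic and branched-chain enzymes they were -4.97 for Tat, -2.18 for Hgd, -2.21 for Fah, -2.25 for Bckdha and -1.38 for Hibadh. Among the methionine and cysteine enzymes they were -3.22 for Mat1a, -2.78 for Gnmt, -1.62 for Ahcy and -1.87 for Cbs. For serine, dimethylglycine, histidine and lysine they were -1.80 for Sds, -2.37 for Dmgdh, -2.88 for Amdhd1, -2.05 for Ftcd and -1.35 for Gcdh. Among the transaminases and glutaminase they were -1.54 for Got1, -3.04 for Gpt and -1.62 for Gls2. Cbs was the only one of the 17 not called by diet in the livers, where it passed the adjusted p at a log2 fold change of 0.95. Groups of 3 mice are too small for a test of single outlying samples.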

How the results depend on the processing

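Higher calls in the livers, 29, were 22 to 33 under the alternatives with all 6 livers and 0 to 35 when a library was left out (4 without mouse 101, 0 without 103, 7 without 105, 17 without 107), and lower calls were 0 throughout. In the xenografts, 1 enzyme was called higher under DESeq2, 1 with library totals and 1 with no filter on low counts, in each case Cdo1, and leaving out a library gave 0 to 1. Interaction calls, 17 lower, ranged from 7 to 25 when a library was left out and were 24 with DESeq2, 22 with resubmission as a covariate and 13 with library totals. Interaction calls upward were 1 with library totals (Gldc) and 0 to 1 when a library was left out. Calls between the models stayed at 43 to 45 on the control diet and 44 to 47 on the No-Trp diet, or 48 on both with no fold threshold. In the xenografts the resubmission mark is on control tumors 41 and 43 and on no No-Trp tumor, so it is largely confounded with diet. With the mark as a covariate, 9 of the 48 xenograft diet results moved from the main fit and 39 stayed the same. No called enzyme changed sign under any alternative run. The cause of these shifts was not tested. Library totals without composition factors moved the median of all genes to -0.30 in the livers and 0.41 in the interaction, where the enzymes had medians of 0.95 and -0.87, and the share of all liver calls that were higher from 56.1% to 32.3%. It moved that share from 67.9% to 84.5% in the xenografts, 52.7% to 80.7% in the interaction and 56.2% to 74.1% between the models on the No-Trp diet. With 3 mice a group, differences under the spread between mice were not detectable. No paired analysis was possible because the groups share no mouse numbers.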
